A study of Mus musculus with 80 samples.

Results

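CTCF sites that lie away from promoter and enhancer marks were taken from the CTCF chromatin immunoprecipitation (ChIP-seq) of wild type (WT) mouse embryonic stem cells. A site belonged to the set when its peak shared no base with a WT peak of H3K4me3 (either of 2 libraries), H3K27ac or H3K27me3 (library 1). Of 49208 WT CTCF sites, 32994 (67.1%) met this rule and are called unmarked below, and the other 16214 are called marked. No 2 CTCF peaks overlapped, so every site is 1 peak of the deposited list.

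The series profiled stem cells with and without MLL2 (Kmt2b), the histone methyltransferase that places H3K4me3 at many silent developmental promoters. Knockout (KO) cells were the conditional line Mll2F/F:CreERT2/+, made from C57Bl/6 blastocysts and kept feeder-free with serum and LIF, after 96 h of 4-hydroxytamoxifen. WT cells were the same line with both floxed alleles kept and, per the RNA protocol, the carrier, so that Cre activation, drug and deletion came together in every KO library. ATAC-seq, which cuts open chromatin with a transposase, had 3 libraries per genotype, CTCF ChIP-seq had 1, and day 0 RNA-seq and PRO-seq (a nuclear run-on that maps engaged RNA polymerase) had 2 each. V6.5 stem cells whose MLL2 is catalytic-dead (CD), and WT cells of that line, gave 1 library per mark. They had shared dishes with irradiated fibroblast feeders, which pre-plating took out.

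CTCF is a zinc finger protein that binds a long DNA motif and halts the cohesin ring as it extrudes chromatin loops, so that its sites form loop anchors and domain boundaries. Many of its sites lie in promoters, but most lie between genes or within introns, where they can insulate a gene from an enhancer on the other side. Bound CTCF commonly leaves a short nucleosome-free gap over its motif. H3K4me3 marks promoters, H3K27ac active promoters and enhancers, H3K27me3 chromatin under Polycomb, and H3K36me3 the bodies of transcribed genes.

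The genotype labels were checked on the MLL2 ChIP, which gave 264 peaks in KO cells and 11085 in WT cells. An MLL2 peak lay at 11 unmarked CTCF sites in KO cells and 13 in WT cells, against 36 marked sites in KO cells and 3208 in WT cells. Kmt2b RNA was 9.46 and 9.49 FPKM (fragments scaled to gene length and library size) in KO cells and 9.44 and 11.8 FPKM in WT cells, but a value over the whole gene also counts exons outside the deletion and checks nothing. Stem cell identity was checked on RNA: the 8 stem cell markers Pou5f1, Nanog, Sox2, Zfp42, Esrrb, Klf4, Tdgf1 and Dppa5a summed to 7245 to 7563 FPKM in KO cells and 8060 to 11676 FPKM in WT cells. Most of this sum was Dppa5a, at 5052 and 4825 FPKM in KO and 8476 and 5481 FPKM in WT. Nanog had 377 and 333 FPKM in KO and 566 and 458 FPKM in WT. Sox2 had 109 and 102 FPKM in KO and 154 and 138 FPKM in WT. Every marker mean was lower in KO except that of Tdgf1 (410 FPKM in KO, 382 FPKM in WT), and none of the 8 was called. The 4 endoderm markers summed to 1.79 to 2.03 FPKM in KO cells and 1.29 FPKM in both WT libraries, and the 4 trophoblast markers to 13.0 to 13.7 FPKM in KO and 10.7 to 12.0 FPKM in WT. The 4 fibroblast markers summed to 3.86 to 4.30 FPKM in KO and 2.60 to 2.81 FPKM in WT. Most of the trophoblast sum was Krt8, at 13.1 and 12.6 FPKM in KO and 10.3 and 11.8 FPKM in WT. Most of the fibroblast sum was Thy1, at 3.44 and 4.05 FPKM in KO and 2.58 and 2.48 FPKM in WT. Neither gene was called (limma adjusted p = 0.661 for Krt8 and 0.255 for Thy1). Col3a1 was listed at 0 in 3 of these 4 libraries and Foxa2 in 1, and no marker was at 0 in all 4. The ATAC and ChIP cells were not measured this way, and the part of these shifts in the results below was not tested.

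One ATAC library stood apart. KO replicate 1 had the shortest peak list, 26601 peaks, against 35086 and 36736 in the other KO libraries and 31383, 41237 and 37641 in WT replicates 1 to 3. At unmarked sites it shared 21.5 to 23.2% of the open sites of either library with each other library, whereas the remaining 10 library pairs shared 38.6 to 45.6%. Comparisons of KO with WT means are therefore given with and without it, and the other ATAC results by library. The depth of sequencing behind the peak lists is unknown.

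Unmarked CTCF sites had weaker peaks than marked ones. Their peak score, the authors' value from the peak caller, had a median of 246 and quartiles of 112 and 463, against a median of 377 and quartiles of 141 and 683 at marked sites. The peaks were also narrower, with a median of 1035 bp at unmarked and 1095 bp at marked sites. Among marked sites, 13062 carried H3K4me3, 1820 carried H3K27ac without H3K4me3 and 1332 carried H3K27me3 alone.

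Away from marks did not always mean far from them. The distance from an unmarked site to the nearest edge of a mark peak had a median of 11377 bp and quartiles of 3337 and 34782.5 bp. It was under 1000 bp at 9.77% of unmarked sites, under 10000 bp at 47.0% and under 100000 bp at 90.9%. Another CTCF site lay at a median of 11122 bp from an unmarked site, against 6358 bp from a marked one. The rule itself turned on single bases at its edge: the site at chr12:113909827-113910802 (mm9) touched a mark peak without sharing a base and is unmarked, whereas the site at chr11:106970008-106970878 shared 1 base and is marked.

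The strongest unmarked sites illustrate the set. On the mm9 build, 3 members shared the highest score, 3100, among them the site at chr10:80342804-80344792 and that at chr12:114457778-114461647. The site on chromosome 12, 29397 bp from any mark, had an ATAC peak in all 3 KO and all 3 WT libraries, while the site on chromosome 10, 4486 bp from a mark, had none in any. The next 3 by score were chr7:86871605-86875307 (2805), chr2:167503726-167506858 (2731) and chr10:24341007-24343335 (2640). Of these, the site on chromosome 7 was open in WT replicate 3 alone, and the others were in no ATAC list. All 5 kept a CTCF peak in KO cells. Of these 5 sites, 3 had no called ATAC peak in any library.

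Most unmarked CTCF sites had no called ATAC peak. In KO replicates 1, 2 and 3 an ATAC peak lay at 4.21, 11.7 and 12.8% of the 32994 unmarked sites, and in WT replicates 1, 2 and 3 at 8.87, 13.2 and 11.7%. The Wilson 95% intervals of these shares, which cover counting error only, reached at most 0.37 points from the value. The KO mean was 9.57 ± 4.68% and the WT mean 11.3 ± 2.19% (SD, n = 3 each), and the groups overlapped. The difference, KO minus WT, was -1.68 points (exact permutation test over libraries, 2-sided, p = 0.6), and 3 libraries against 3 cannot go below p = 0.1. Without KO replicate 1 it turned to 1.00 points (12.3% in KO, 11.3% in WT, exact permutation p = 0.9). With every ATAC list cut to its 26601 highest scores the shares were 4.21, 7.24 and 6.80% in KO replicates 1, 2 and 3 and 6.84, 5.70 and 6.53% in WT replicates 1, 2 and 3. The labels do not say that libraries came from separate cultures, so these p-values measure the spread between these libraries, which may be technical.

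**Figure D1:**
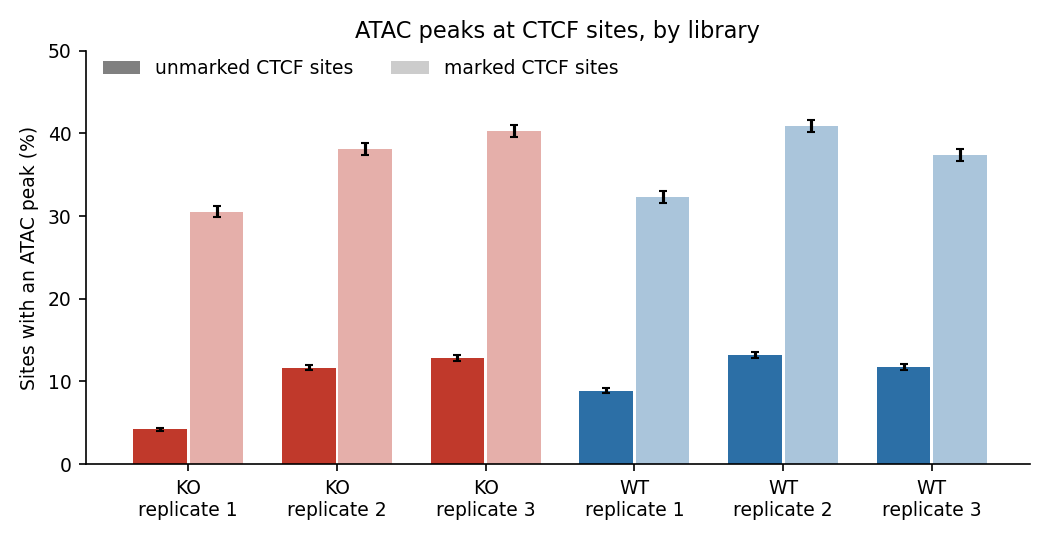
Share of CTCF sites with an ATAC peak (y axis, percent) in each ATAC library (x axis), KO in red and WT in blue, with unmarked sites in full colour and marked sites pale; error bars are Wilson 95% intervals. Unmarked sites lie between 4.21 and 13.2% and marked sites between 30.5 and 40.9%.

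Unmarked sites were open less often than marked ones in every library. At marked sites an ATAC peak was found at 30.5, 38.1 and 40.3% in KO replicates 1, 2 and 3 and at 32.3, 40.9 and 37.4% in WT replicates 1, 2 and 3. Within a library the difference, unmarked minus marked, was -26.3, -26.4 and -27.5 points in KO replicates 1, 2 and 3 and -23.4, -27.7 and -25.7 points in WT replicates 1, 2 and 3. Its mean over 6 libraries was -26.2 ± 1.55 points (SD; exact sign-flip permutation test, 2-sided, p = 0.03125, the smallest that 6 libraries can give). Between genotypes this difference averaged -26.8 ± 0.64 points in KO and -25.6 ± 2.16 points in WT (SD, n = 3 each; exact permutation p = 0.5). KO minus WT, it differed by -1.13 points with all libraries and by -1.34 points without KO replicate 1 (exact permutation p = 0.5 for each). Without KO replicate 1 the mean class difference over the remaining 5 libraries was -26.2 points (exact sign-flip permutation p = 0.0625, the smallest that 5 can give). As a ratio, the marked share over the unmarked share was 7.25 in KO replicate 1 and 3.11 to 3.64 in the remaining 5 libraries.

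The marked sites were not uniform. Sites with H3K4me3 were open at a mean of 42.1% in KO and 43.1% in WT libraries, and sites with H3K27ac but no H3K4me3 at 15.2% in KO and 12.7% in WT. Sites with H3K27me3 alone stood at 8.78 ± 3.54% in KO and 8.91 ± 2.01% in WT (SD, n = 3 each), and were open less often than unmarked sites in 5 of 6 libraries. Without KO replicate 1 the KO means were 45.2% with H3K4me3, 17.0% with H3K27ac but no H3K4me3 and 10.8% with H3K27me3 alone, each above its WT mean (exact permutation p = 0.7, 0.3 and 0.4). Windows moved 10 kb to either side of unmarked sites held an ATAC peak in 3.20 to 4.28% of cases in KO libraries and 3.28 to 4.52% in WT libraries. Such windows can fall on mark peaks, as unmarked sites cannot, so they are not a matched background. KO replicate 1, at 4.21% against 3.20%, had the share closest to that of its shifted windows.

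Openness of unmarked sites went with the strength of the CTCF peak. The 49208 sites were divided into quintiles of WT score, with limits at 99.1, 202, 370 and 597. From the lowest to the highest quintile, unmarked sites were open at a mean of 2.84, 5.82, 11.0, 14.3 and 16.4% in KO and 4.20, 7.96, 13.7, 15.7 and 16.7% in WT libraries, and the share rose at every step in each of the 6 libraries. Without KO replicate 1 the KO means were 3.64, 7.69, 14.2, 18.4 and 20.3%, below WT in the lower 2 quintiles and above it in the upper 3 (exact permutation p = 0.4 to 0.9 over the quintiles). In the highest quintile KO replicates 1, 2 and 3 had 8.68, 18.7 and 21.9% and WT replicates 1, 2 and 3 had 12.7, 20.1 and 17.2%. The median width of unmarked sites rose over the quintiles as well, from 895 bp in the lowest to 1205 bp in the highest. The part of width in the rise of open shares, under an overlap rule of 1 bp, was not tested. Unmarked sites stayed below marked sites of the same quintile in 6 of 6 libraries, with differences of -30.8 to -18.7 points over all quintiles and libraries. The class difference was thus present at matched CTCF score.

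Openness also went with distance from marks, in the direction opposite to that between classes. Among unmarked sites less than 1 kb from a mark peak, an ATAC peak lay at 2.92, 5.96 and 7.41% in KO replicates 1, 2 and 3 and at 3.66, 6.48 and 5.15% in WT replicates 1, 2 and 3. At 100 kb or more it lay at 5.04, 23.1 and 21.8% in KO and at 21.4, 25.3 and 26.3% in WT. The share was higher at each step outward in all 6 libraries, with the smallest difference between the ends in KO replicate 1. CTCF scores ran the other way, with a median of 281 in the nearest group of 3224 sites and 195 in the farthest of 2999. Over the 6 libraries the shifted windows held an ATAC peak in 4.93 to 6.78% of cases beside the nearest sites and 0.52 to 1.45% beside the farthest, without falling at every step between. Within 1 kb of marks, sites were open less often than their shifted windows in 5 of 6 libraries, windows that can themselves fall on marks. At 100 kb or more, sites were open more often than their shifted windows in all 6.

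**Figure D2:**
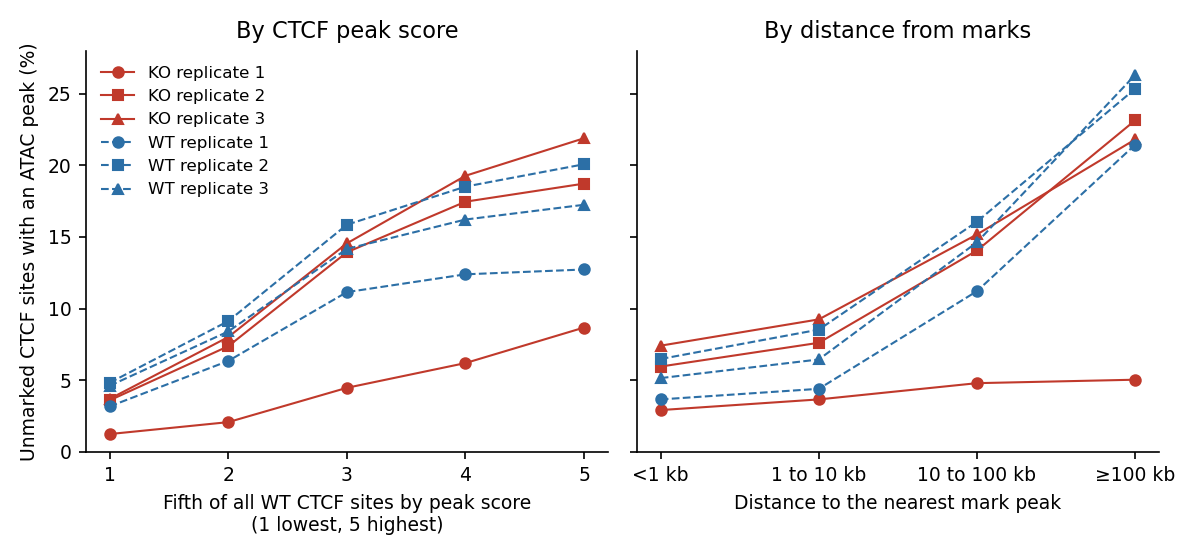
Share of unmarked CTCF sites with an ATAC peak (y axis, percent), by quintile of WT CTCF peak score (left) and by distance to the nearest mark peak (right), with 1 line per library, KO solid red and WT dashed blue. At 100 kb or more from marks KO replicate 1 is at 5.04% and the other 5 libraries are at 21.4 to 26.3%.

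Sites inside H3K36me3 were open less often than those outside. H3K36me3, the mark of transcribed gene bodies, lay in WT cells at 20.6% of unmarked sites under 1 kb from marks, 21.6% at 1 to 10 kb, 10.9% at 10 to 100 kb and 0.17% beyond. Sites with a WT H3K36me3 peak (4914) were open at 3.15, 6.47 and 9.54% in KO replicates 1, 2 and 3 and at 3.32, 8.08 and 4.95% in WT replicates 1, 2 and 3. Sites without one (28080) were open at 4.39, 12.6 and 13.4% in KO and 9.84, 14.1 and 12.9% in WT. All 6 libraries thus had the lower share at sites within H3K36me3, at almost the same median CTCF score (242 with and 247 without). The median distance to marks differed, 5650.5 bp with and 13541.5 bp without, so the part of distance in this difference was not tested.

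Counted over libraries, 25178 unmarked sites (76.3%) were open in none, 7816 (23.7%) in at least 1 and 602 (1.82%) in all 6. Of the marked sites, 3476 (21.4%) were open in all 6. The 7816 had higher CTCF scores than the 25178 (median 378 against 206) and lay farther from marks (median 21977.5 against 9297 bp). The distance held within every score quintile, for example 31800 against 11061 bp in the lowest and 10603 against 4964 bp in the highest.

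Few unmarked sites separated the genotypes completely. An ATAC peak in all 3 KO and no WT libraries was found at 32 unmarked sites (0.097%), against 0.144% of all 49208 CTCF sites. The reverse, all 3 WT and no KO libraries, was found at 114 (0.346%), against 0.38% of all CTCF sites. Both shares are under those of all CTCF sites. However, 76.3% of unmarked and 46.3% of marked sites had no ATAC peak in any library, so fewer unmarked sites could be split this way. Without KO replicate 1, the first count became 226 unmarked sites (0.685%, against 0.807% of all CTCF sites) and the second 122 (0.37%, against 0.427%), so the order of the counts turned. The highest CTCF score among the 32 was at chr5:100750701-100751730 (1469), followed by chr8:109526016-109527345 (1274) and chr14:63110979-63112093 (1190). The next were chr14:55112675-55113725 (983) and chr17:28543600-28544957 (922). Among the 114 it was at chr6:4494221-4496527 (1191), followed by chr11:55804779-55807039 (1077) and chr8:112653940-112655080 (865). The next were chr2:3145470-3147156 (806) and chr2:61329772-61330890 (763). All 10 sites had a CTCF peak in KO as well as in WT cells, and lay 283 to 88192 bp from the nearest mark.

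Where unmarked sites were open, the ATAC peak sat on the CTCF peak. The distance between the ATAC and CTCF midpoints had a median of 83, 78.5 and 77.5 bp in KO replicates 1, 2 and 3 and 82, 81.5 and 81.5 bp in WT replicates 1, 2 and 3. At marked sites it was 209 to 232.5 bp in KO and 216 to 218.5 bp in WT. Midpoints fell within 250 bp at 87.8 to 91.2% of open unmarked sites in KO and 89.4 to 90.5% in WT. KO replicate 1 had the largest median distance and the lowest share within 250 bp of the 6 libraries. These ATAC peaks were weak within their own lists. Their median score stood at percentile 23.0, 31.5 and 29.7 of the list in KO replicates 1, 2 and 3 and at 31.8, 31.1 and 32.8 in WT replicates 1, 2 and 3. They made up 5.23, 11.0 and 11.5% of all ATAC peaks in KO and 9.33, 10.6 and 10.3% in WT.

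**Figure D3:**
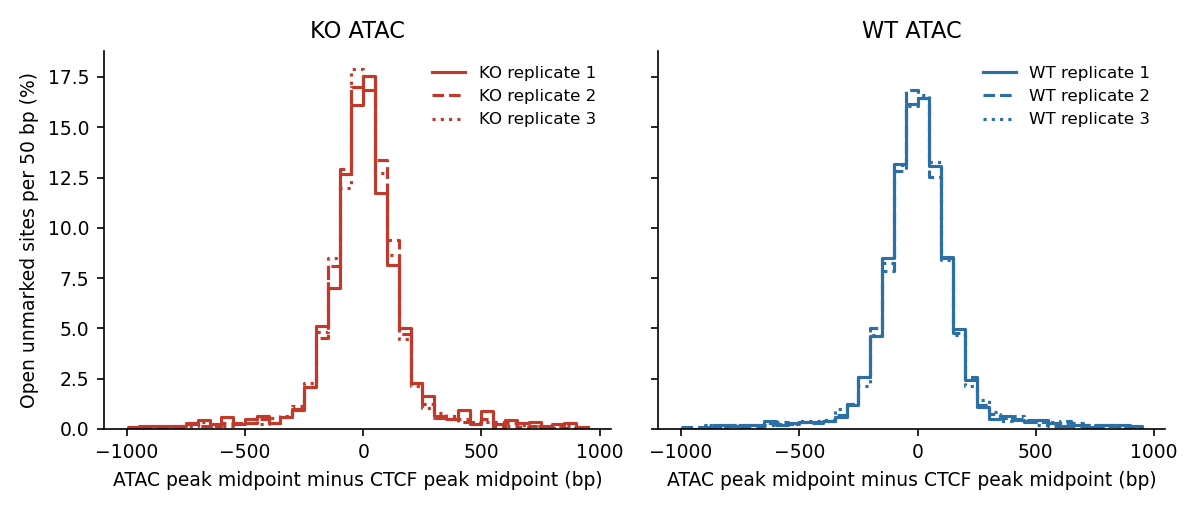
Distance of the ATAC peak midpoint from the CTCF peak midpoint (x axis, bp) at open unmarked sites, as the percentage of such sites per 50 bp (y axis), in KO (left) and WT (right) libraries. All 6 curves are centred on the CTCF peak, with 87.8 to 91.2% of midpoints within 250 bp.

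CTCF itself was retained at most unmarked sites. The KO list held 50764 CTCF peaks and the WT list 49208. A KO peak overlapped 30887 of the 32994 unmarked sites (93.6%, Wilson 95% interval 93.3 to 93.9%) and 14983 of the 16214 marked sites (92.4%, 92.0 to 92.8%). The 2107 unmarked sites without one (6.39%) compare with 6.78% of all CTCF sites. With 1 CTCF library per genotype there is no test of the genotype and no measure of how often 2 WT libraries would share a site. Midpoints of KO and WT peaks lay a median of 37.5 bp apart at unmarked sites.

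Sites without a KO peak were the weak ones. Their WT score had a median of 64.3 and a maximum of 190, against a median of 271 for unmarked sites with a KO peak. By quintile of WT score, from the lowest, 73.3, 97.1, 100, 100 and 100% of unmarked sites had a KO peak, against 62.4, 92.9, 99.6, 100 and 100% of marked sites. All 18712 unmarked sites of the upper 3 quintiles had one, and a count of 0 sites without one allows a share of up to 0.016%. That limit treats sites as independent within this pair of libraries and sets no bound for other KO libraries. The Wilson 95% intervals in the lowest quintile were 72.2 to 74.3% for unmarked and 60.6 to 64.2% for marked sites, and cover counting within this pair of libraries only. The absence of a peak from a list near the score limit of 50 does not show that CTCF was absent.

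**Figure D4:**
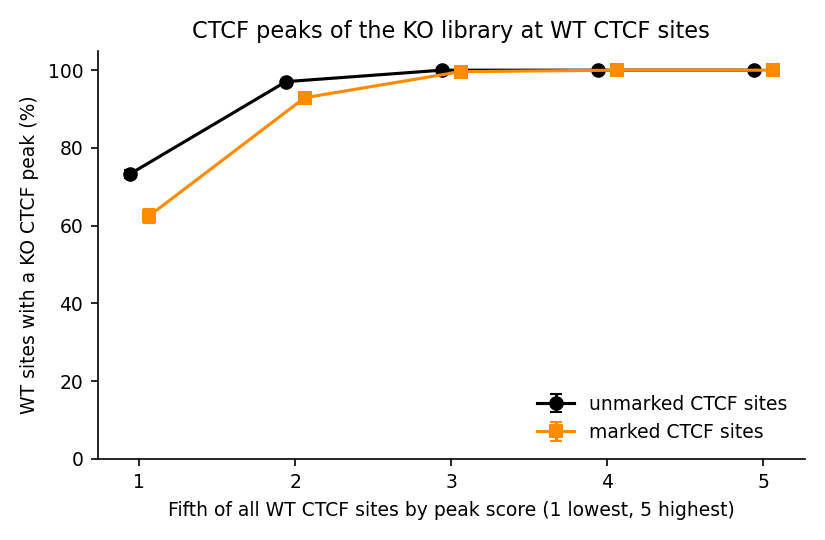
Share of WT CTCF sites that overlapped a CTCF peak of the KO library (y axis, percent), by quintile of WT CTCF score (x axis), for unmarked (black circles) and marked sites (orange squares) with Wilson 95% intervals. The lowest quintile has 73.3% for unmarked and 62.4% for marked sites, and the upper 3 quintiles are at 99.6 to 100%.

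Read from the KO side the order of the classes turned. Of 34565 KO CTCF sites away from the same WT marks, 89.2% (88.8 to 89.5%) had a WT peak, against 92.6% (92.2 to 93.0%) of 16199 marked KO sites. The 3747 unmarked KO sites without a WT peak had a median score of 67.2 and a maximum of 312 in their own list, the median again near its limit. In the lowest quintile of KO score, 56.6% (55.4 to 57.7%) of unmarked and 62.9% (61.0 to 64.6%) of marked KO sites had a WT peak, the opposite order to that by WT score. Gains and losses of unmarked CTCF peaks were thus both found among the weakest peaks of either list.

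The strongest WT sites without a KO peak were chr4:101138577-101139615 (score 190), chr3:132774675-132775327 (189), chrX:108487430-108488522 (184), chrX:55630786-55631860 (177) and chr5:87050343-87051478 (175). The site on chromosome 3 was open in KO replicates 2 and 3 and in all 3 WT libraries, and the other 4 were in no ATAC list. Over all 2107 sites, an ATAC peak lay at 1.33, 3.46 and 3.56% in KO replicates 1, 2 and 3 and at 3.61, 4.89 and 5.36% in WT replicates 1, 2 and 3. The KO mean was 2.78 ± 1.26% and the WT mean 4.62 ± 0.91% (SD, n = 3 each), a difference of -1.84 points in which the groups did not overlap (exact permutation p = 0.1, the smallest 3 against 3 can give). The nearest libraries differed by a single site, 75 sites in KO replicate 3 and 76 in WT replicate 1. Without KO replicate 1 the KO mean was 3.51% and the difference -1.11 points (exact permutation p = 0.2). At the 30887 sites that kept CTCF the means were 10.0% in KO and 11.7% in WT, and the groups overlapped (exact permutation p = 0.7). The difference there, -1.67 points, was close in points to that at the 2107 sites, but smaller relative to its WT mean. Without KO replicate 1 the KO mean at the kept sites was 12.8%, above WT, whereas the 2107 sites stayed below WT. Whether the change differed between these sets was not tested. At the 3747 sites with a KO peak only, the means were 2.22% in KO and 2.75% in WT (exact permutation p = 0.5), and 2.78% in KO without KO replicate 1.

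Other libraries placed a modest set of peaks at unmarked sites. The WT lists of H3K4me3, H3K27ac and H3K27me3 library 1 chose the sites, so WT is 0 there by the rule and a peak in KO is a description. KO peaks of H3K4me3 lay at 0.78% of unmarked sites in library 1 and 0.75% in library 2, and KO peaks of H3K27ac at 1.41%. In windows shifted by 10 kb, which the rule did not clear of marks, these KO shares were 7.83, 7.31 and 5.73%. KO library 1 of H3K27me3 lay at 1851 unmarked sites (5.61%), and at 3.48% with the list cut to the 19820 peaks of its WT list. The full KO list also lay at 7.73% of windows shifted by 10 kb from unmarked sites and at 37.6% of marked sites. The rule kept peaks of the WT list off unmarked sites but not off these windows, where that list lay at 3.71%. The lower KO share at unmarked sites than in the windows therefore cannot be read apart from the rule. Only 2.22% of those 1851 sites carried a peak of KO H3K27me3 library 2, a list of 8266 peaks, while 26.0% carried a peak in V6.5 CD cells and 28.2% in V6.5 WT cells. They lay near WT marks, at a median of 2238 bp, against 12205 bp for unmarked sites without such a peak. In all, 7.83% of unmarked sites carried a KO mark, and 7.12% of KO CTCF sites without KO marks carried a WT mark.

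Lists that the rule did not use gave mutant and WT values, with 1 library each. The rule chose sites by WT marks alone, so WT lists of the same or related targets can be low there by selection. H3K27me3 library 2, the same mark, is the plainest case. The part of this selection in the values below was not tested. H3K27me3 library 2 had a peak at 0.15% of unmarked sites in KO and 0.19% in WT. H3K36me3 lay at 14.2% (13.8 to 14.5%) in KO and 14.9% (14.5 to 15.3%) in WT, and at 14.2% in both with lists of equal length. With full lists it lay at nearly the same share of windows shifted by 10 kb, 14.4% in KO and 15.1% in WT. Marked sites had it at 18.2% in KO and 18.9% in WT. RNA polymerase II phosphorylated at serine 5 lay at 5.33% in KO and 2.86% in WT, or 3.52% in KO and 2.86% in WT with lists of equal length. Marked sites had the same order at equal length, 50.1% in KO and 43.8% in WT, as had the shifted windows with full lists, 10.2% in KO and 6.35% in WT. Its subunit RPB1 lay at 7.30% in KO and 5.82% in WT, or 5.73% in KO and 5.82% in WT at equal length. The shifted windows had RPB1 more often, at 10.3% in KO and 8.05% in WT with full lists. The Polycomb proteins Suz12 and Ring1b were at 0.11% or less in every library. In V6.5 cells H3K4me3 lay at 0.63% in CD and 2.52% in WT cells, or 0.63% in CD and 1.04% in WT at equal length. Marked sites had the same order at equal length, 51.9% in CD and 59.9% in WT. The shifted windows had it too with full lists, 7.07% in CD and 10.6% in WT. The H3K27me3 of V6.5 cells lay at 2.51% of unmarked sites in CD and 2.41% in WT.

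**Figure D5:**
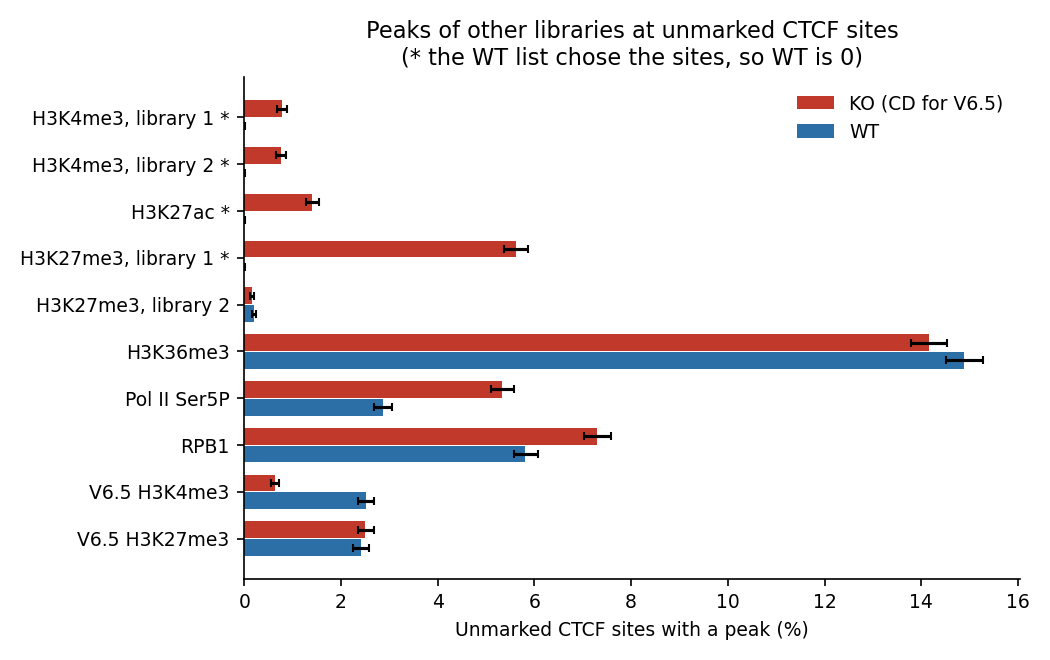
Share of unmarked CTCF sites with a peak in other libraries (x axis, percent), KO or CD in red above WT in blue, with Wilson 95% intervals. H3K36me3 is the most common at 14.2% in KO and 14.9% in WT, close to its share of windows shifted by 10 kb (14.4% in KO, 15.1% in WT, not drawn). An asterisk marks targets whose WT list chose the sites, where WT is 0 by the rule.

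A list of 26 genes, of CTCF, its germline paralogue Ctcfl, the cohesin subunits and regulators, and other factors found at CTCF sites or loop anchors (Zfp143, Maz, Yy1, Chd8, Adnp and Top2b), was examined in day 0 RNA and PRO-seq. None of the 23 tested of 26 listed genes passed limma's adjusted p of 0.05 in RNA, where 1.4% of all 11318 tested genes were higher and 1.93% lower in KO. None of 24 tested passed in PRO-seq, where 0.667% of 14535 genes were higher and 0.832% lower. At an unadjusted p under 0.05 the counts were 3 in RNA and 0 in PRO-seq, a threshold that 15.5% of all tested genes passed in RNA and 17.1% in PRO-seq. Those 3 genes passed limma's adjusted p of 0.05 in RNA when same-numbered replicates were fitted as blocks, a pairing that no label states. So did 17.7% of all tested genes, and no listed gene passed this way in PRO-seq. The list's median log2 fold change, KO over WT, was -0.02 in RNA and -0.06 in PRO-seq, against 0.01 for all tested genes in both.

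Ctcf RNA was 42.0 and 40.4 FPKM in KO and 43.1 and 44.5 FPKM in WT cells (a log2 fold change of -0.08, with SE 0.13 and a limma adjusted p of 0.875). In the cohesin core, Rad21, the subunit that closes the ring, had 155 and 153 FPKM in KO and 148 and 144 FPKM in WT cells. Smc1a, one of the ring's arms, had 61.6 and 62.2 FPKM in KO and 62.6 and 73.5 FPKM in WT cells. Smc3, the other arm, had 59.6 and 69.4 FPKM in KO and 51.8 and 68.0 FPKM in WT cells. Stag1 and Stag2 encode alternative subunits through which cohesin meets CTCF. Stag1 had 15.4 FPKM in both KO libraries and 19.3 and 24.9 FPKM in WT, a log2 fold change of -0.49 (SE 0.16) that did not pass (limma adjusted p = 0.187). It passed only with replicates fitted as blocks (limma adjusted p = 0.0036). Stag2 had 29.8 and 36.3 FPKM in KO and 27.5 and 35.2 FPKM in WT. The loader Nipbl had 11.6 and 9.97 FPKM in KO and 10.3 and 11.6 FPKM in WT, and the releaser Wapl had 34.6 and 33.6 FPKM in KO and 35.6 and 40.1 FPKM in WT. Over Rad21, Smc1a, Smc3, Stag2, Nipbl and Wapl the log2 fold changes in RNA ran from -0.15 to 0.11, with limma adjusted p of 0.759 to 0.981. In PRO-seq they ran from -0.18 to -0.01, with limma adjusted p of 0.507 to 0.988. In PRO-seq Ctcf had 12.6 and 12.4 FPKM in KO and 12.3 and 15.0 FPKM in WT (a log2 fold change of -0.11, with SE 0.12 and a limma adjusted p of 0.691). Stag1 had 11.6 and 12.5 FPKM in KO and 10.6 and 12.1 FPKM in WT.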

How the data were processed

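Peak lists per library were deposited by the authors as intervals with a score each, and per the file lines the peaks carry MACS names. The sources used here do not give the score type, the control or the caller's version. Per the submitters' processing notes, ChIP and ATAC reads were aligned with Bowtie to mm9, and RNA (TopHat) and PRO-seq (cutadapt 1.14, Trimmomatic 0.33, Bowtie 1.1.2) were scaled with DESeq2. FPKM tables were deposited by the authors with 2 libraries per genotype, and the sources used here do not give their strand setting, so overlapping and antisense genes cannot be told apart. H3K4me3 library 2 differs from library 1 in antibody and has a Drosophila spike-in, per the labels.

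The members and gene lists were chosen with earlier results of these data known. Overlap was 1 bp or more and coordinates are 1-based. Shares were compared over libraries by exact permutation or sign-flip tests, 2-sided. Wilson 95% intervals describe single libraries. Shifted windows were moved 10 kb each way and averaged. No score was compared between lists. Genes were tested with limma 3.58.1 in R 4.3.3 (trend, Benjamini-Hochberg over all genes with mean FPKM of at least 1) on log2(FPKM + 1), which understates changes of low genes. Python 3.11.15 with numpy 2.4.6, pandas 2.3.3 and scipy 1.17.1 was used. The overlap and limma code was tested on simulated data. In low genes the FPKM worth of 1 read varied by up to 1.18 times between libraries of a table. Named regions were the 5 with the highest WT score in each stated set, the nearest to the rule's edge on either side, with chromosome 18 left out, and named genes were Ctcf, Rad21, Smc1a, Smc3, Stag1, Stag2, Nipbl, Wapl and any list member that passed. Sequences of the sites were not used here.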

Additional observations from a re-analysis of the deposited data

How the results depend on the processing

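The lower ATAC share at unmarked than at marked CTCF sites kept its direction in every alternative run, from -27.0 points (peaks merged over gaps up to 500 bp) to -16.1 points (unmarked sites at least 100000 bp from marks, chosen after seeing the data). Leaving out 1 library gave -26.7 to -25.9 points with exact sign-flip p = 0.0625, the smallest that 5 libraries allow. The KO minus WT difference in ATAC share at unmarked sites ran from -3.30 to 1.00 points when 1 library was left out, and was positive only without KO replicate 1. With that library left out and the other 5 lists at equal numbers (chosen after seeing the data) it was 1.06 points (exact permutation p = 0.1). That is the smallest p that 2 libraries against 3 can give. The class difference in this setting was -25.3 points (exact sign-flip p = 0.0625). At unmarked sites at least 100000 bp from marks the KO minus WT difference was -7.70 points (exact permutation p = 0.3) and that of the class difference -7.16 points (p = 0.2), but the ATAC share difference there was -1.89 points without KO replicate 1 (p = 0.4). The class difference, KO minus WT, ran from -2.20 to -0.039 points when 1 library was left out. With only the stronger 50% of each overlapped list it turned to 0.41 points (exact permutation p = 0.8). The same setting lowered the KO CTCF share at unmarked sites to 48.6% and turned unmarked minus marked to -9.87 points, since it removes weak KO peaks by construction. The KO CTCF share was 92.3% with CTCF lists of equal length and 100% for the stronger 50% of WT CTCF peaks, where the class difference was 0.032 points. Among unmarked sites at least 100000 bp from marks it was 92.0%, and the class difference turned to -0.44 points. Covering 50% of the site, a 400 bp window, 1000 bp from marks and H3K27me3 library 2 as a further mark changed no call. Same-numbered ATAC libraries deviated together with correlations of 0.087, 0.000048 and 0.0073, so the numbers were not taken as pairs. With the replicate block the ATAC differences stayed at -1.68 points (exact sign-flip p = 0.5) and -1.13 points (p = 0.5). The replicate block raised the count of called listed genes in day 0 RNA to 3 (Smc1b, Stag1 and Top2b, the same genes as at an unadjusted p under 0.05) and left it at 0 in PRO-seq. With it 17.7% of all tested genes were called in RNA and 8.88% in PRO-seq, and Stag1 had a limma adjusted p of 0.0036. Between genotypes, replicate 1 minus replicate 2 correlated over genes at 0.57 in RNA and 0.36 in PRO-seq, from only 2 pairs each. The other gene alternatives gave 0. Over all genes tested, however, the limma count depended on the setting, with 376 calls as reported and 0 without a filter on low values in RNA, and 218 and 0 in PRO-seq. Those counts were also 0 without either WT library in RNA and without either KO library in PRO-seq. Peak lists hide signal under a score of 50, so an unlisted site is not shown to be closed or unbound.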

Other observations

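On the X chromosome, unmarked CTCF sites were open more often than on any autosome in all 6 ATAC libraries. The shares at its 1212 unmarked sites were 6.85, 19.8 and 19.8% in KO replicates 1, 2 and 3 and 13.9, 22.5 and 17.8% in WT replicates 1, 2 and 3. Over the autosomes they were 4.11, 11.4 and 12.5% in KO and 8.67, 12.8 and 11.5% in WT. The next highest chromosome was 3 or 1 in each library, at 5.75, 14.1 and 17.4% in KO and 12.9, 17.9 and 15.9% in WT. The lowest was 15 or 11 in KO libraries and 19 in the 3 WT libraries. A KO CTCF peak lay at 94.6% of the X-linked unmarked sites, close to the 93.6% over all chromosomes. Unmarked sites on X lay at a median of 22933 bp from marks, against 6873 to 17190 bp on the autosomes. These are values of single chromosomes with no test, and the part of distance in them was not tested.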
